A study of Danio rerio with 6 samples.

Results

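The STAT transcription factors are described here in whole zebrafish embryos that carried a NOD1 expression plasmid. The plate held 9 wells with a STAT symbol among 326 gene wells (STAT1a, STAT1b, STAT2, STAT3, STAT4, STAT5.1, STAT5.2, STAT6 and STAT7). They were taken by symbol, with earlier results of these data known. The NOD1 group was microinjected with ptGFP1-NOD1 and the control group with the empty plasmid ptGFP1. The labels name no strain. Both groups were collected at 24 hours post fertilization, with 3 biological replicates per group and 1 real-time PCR plate per replicate. Each RNA sample came from a pool, 150 to 200 embryos per group on average, and the labels state neither the plasmid's promoter nor the share of cells that took it up. They do not say either whether replicates came from separate spawnings, so p-values measure the spread between these 6 samples.

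STAT proteins wait in the cytoplasm until a cytokine or hormone receptor activates its JAK kinases, which phosphorylate the STAT so that it pairs, enters the nucleus and binds DNA. Type I interferons act through a complex that holds STAT2 and IRF9. IL-6 family cytokines act through STAT3, growth hormone, prolactin and erythropoietin through STAT5, and, in mammals, IL-12 through STAT4 and IL-4 and IL-13 through STAT6. NOD1 is an intracellular sensor of bacterial peptidoglycan.

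Of the 9 wells, 7 matched a current RefSeq zebrafish gene by accession, STAT2 by symbol and STAT7 by synonym (assembly GRCz12tu, used for names and gene order only). By these matches the wells stand for 8 genes. STAT6 and STAT7 both map to stat6, STAT7 by synonym only, so they are taken here as a pair of assays of 1 gene. STAT5.1 and STAT5.2 are the paralogs now named stat5a and stat5b. In the same table stat1b and stat4 are neighbours with 0 protein-coding genes between them, as are stat3 and stat5a. Whether the STAT1a and STAT1b assays, or the STAT5.1 and STAT5.2 assays, detect only their own paralog is not stated in the labels or files.

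All 9 wells gave a threshold cycle (Ct, the PCR cycle at which a well's signal passes a set brightness, so earlier means more template) on all 6 plates, between 22.6 and 30.0 cycles, and all 9 passed the filter of a Ct under 35. The relative level used below is the Ct of the well subtracted from the plate's average over ACTB, GAPDH and Tuba1, on a log2-like scale where a higher value means more transcript. Amplification efficiencies are not given, so levels are compared between groups for 1 well and not between wells. In a bulk embryo sample, fewer cells of a type and less RNA per cell cannot be told apart. Between 314 and 321 gene wells per plate had a Ct under 35. The injected gene was higher in every NOD1 plate, at a relative level of -3.20, -1.49 and -2.26 in NOD1 replicates 1 to 3, against -10.81, -10.94 and -10.97 in control replicates 1 to 3. The reference genes were themselves later in NOD1 plates, with a mean Ct of 18.3 ± 0.102 in NOD1 and 17.6 ± 0.136 in control plates (SD, n = 3 each), so every relative difference contains a shift of 0.655 cycles. The control plates were run on 2 days and the NOD1 plates on another day, with no day common to the groups, so the run day cannot be told apart from the group and no within-day comparison exists.

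Relative to the reference genes, STAT1b and STAT2 were higher in NOD1 embryos, STAT3, STAT5.1, STAT5.2 and both stat6 assays were lower, and STAT1a and STAT4 did not pass. The rises were 4.35-fold for STAT1b and 3.02-fold for STAT2, and the 5 falls were between 1.80-fold and 2.15-fold. Across all 319 tested genes 52.4% passed at a limma adjusted p under 0.05, 37.0% as higher and 15.4% as lower, with a median difference of 0.32 on the log2 scale. Among the 9 wells, 2 were higher and 5 lower, with a median difference of -0.85. The groups did not overlap in 8 of the 9 wells, STAT4 being the exception, where 63.9% of all tested genes did not overlap.

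**Figure D1:**
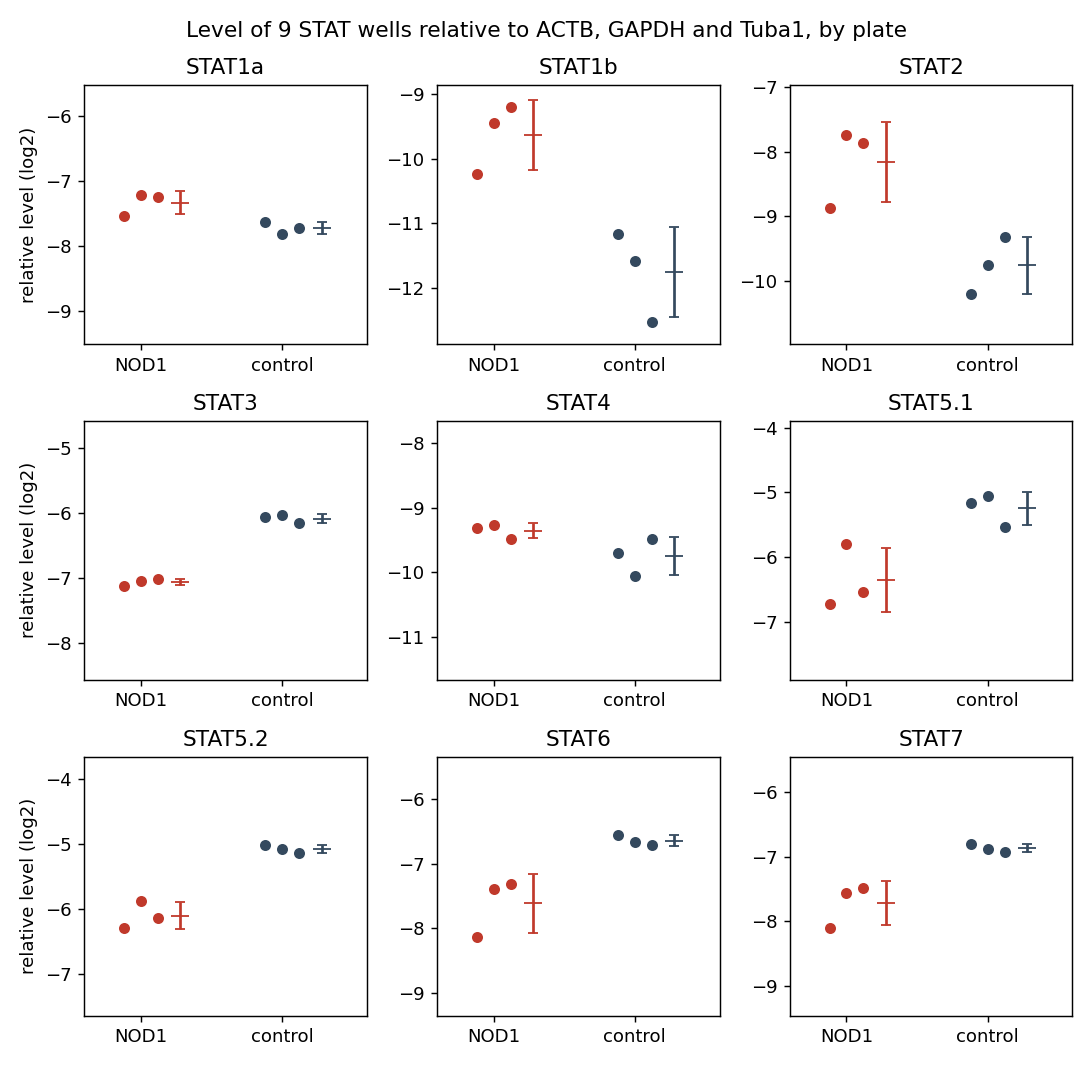
Relative level (log2, average Ct of the 3 reference genes minus Ct of the well) of each STAT well on 3 NOD1 plates (left, red) and 3 control plates (right, dark), with the group mean and SD as a bar beside the points and the same span on every vertical axis. NOD1 plates lie above all control plates for STAT1a, STAT1b and STAT2, below them for STAT3, STAT5.1, STAT5.2, STAT6 and STAT7, and overlap them for STAT4.

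The interferon STATs did not move by the same amount. STAT1b had relative levels of -10.24, -9.45 and -9.21 in NOD1 plates, against -11.16, -11.58 and -12.52 in control plates. Every NOD1 plate was above every control plate, and control replicate 3 was the lowest of all. The difference was 2.12 ± 0.44 on the log2 scale (SE, limma adjusted p = 0.00969), and its rank among the 319 tested genes was 42 from the highest. On raw Ct the NOD1 wells of STAT1b were still 1.47 cycles earlier (adjusted p = 0.0200), so this rise was present before any reference gene was subtracted. With cyclic loess scaling it was 1.04 (adjusted p = 0.0887) and with quantile scaling 1.03 (adjusted p = 0.133), a move of over 1.5 times that ended the call.

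STAT2, a subunit of the type I interferon complex, had relative levels of -8.87, -7.75 and -7.88 in NOD1 plates, against -10.20, -9.76 and -9.32 in control plates. NOD1 replicate 1 lay closest to the control plates, with no overlap. The difference was 1.59 ± 0.38 (SE, limma adjusted p = 0.0158). The call ended without NOD1 replicate 2 (1.38, adjusted p = 0.0525), on raw Ct, where NOD1 wells were 0.94 cycles earlier (adjusted p = 0.0711), and with quantile scaling (0.93, adjusted p = 0.122).

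STAT1a had relative levels of -7.54, -7.22 and -7.25 in NOD1 plates, against -7.63, -7.81 and -7.72 in control plates. The groups did not overlap, but NOD1 replicate 1 was 0.085 above the highest control plate. The difference was 0.39 ± 0.14 (SE, limma adjusted p = 0.0615), which is close to the median of all tested genes, 0.32. It passed without NOD1 replicate 1 (0.49, adjusted p = 0.0223), and its sign turned on raw Ct, where NOD1 wells were 0.27 cycles later (adjusted p = 0.194), and with the plate median (-0.13, adjusted p = 0.475).

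**Figure D2:**
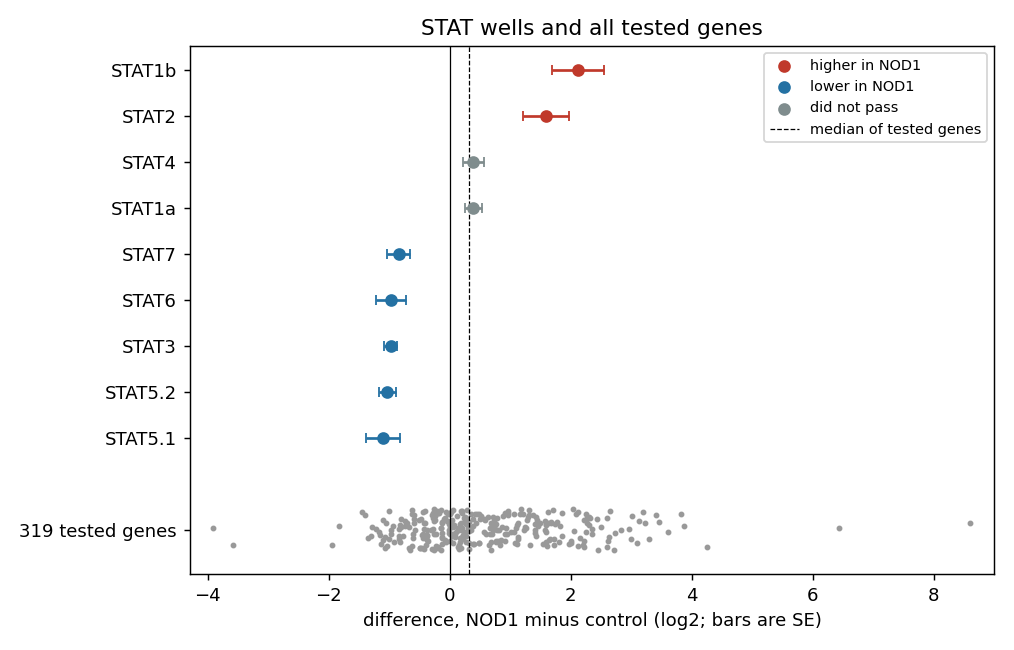
Difference in relative level, NOD1 minus control (log2), of the 9 STAT wells with their limma SE (upper rows; red passed as higher, blue passed as lower, grey did not pass) and of all 319 tested genes (bottom row, spread vertically for visibility). STAT1b at 2.12 and STAT2 at 1.59 lie to the right of the dashed median of all tested genes, 0.32, STAT1a and STAT4 lie at it, and the other 5 wells lie between -1.11 and -0.85.

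STAT1a and STAT1b were set against each other on the same plate, which needs no reference gene. STAT1a minus STAT1b was 2.70, 2.23 and 1.96 in NOD1 plates, against 3.53, 3.76 and 4.79 in control plates. The groups did not overlap, and the gap between these wells was 1.73 ± 0.44 smaller on the log2 scale in NOD1 embryos (SE; two-sided exact permutation p = 0.1, which is the lowest value possible with 3 plates per group; 0.15 adjusted over 3 pairs). With quantile and with cyclic loess scaling the gap changed by -0.90 and -0.69 (exact permutation p = 0.2 in both cases, two-sided).

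STAT3, the mediator of IL-6 family signals, had little spread within either group. Its relative levels were -7.12, -7.04 and -7.02 in NOD1 plates, against -6.07, -6.03 and -6.16 in control plates. Every NOD1 plate was below every control plate, by 0.87 or more. The fall was 0.98 ± 0.11 on the log2 scale, or 1.97-fold (SE, limma adjusted p = 0.00150), and on raw Ct the NOD1 wells were 1.63 cycles later (adjusted p = 8.37e-04). The call held under all 8 other scalings and without any 1 plate.

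The STAT5 paralogs, which relay growth hormone, prolactin and erythropoietin, fell side by side. STAT5.2 had relative levels of -6.29, -5.89 and -6.14 in NOD1 plates, against -5.01, -5.08 and -5.13 in control plates. The groups were separate, and the fall was 1.03 ± 0.14 (2.04-fold, SE, limma adjusted p = 0.00271). The place of STAT5.2 among the 319 tested wells, counted from the lowest Ct, was 75, 67 and 75 in NOD1 plates, against 30, 32 and 31 in control plates.

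STAT5.1 had relative levels of -6.73, -5.79 and -6.54 in NOD1 plates, against -5.16, -5.06 and -5.53 in control plates. The groups were separate, with NOD1 replicate 2 nearest to the control plates. The fall was 1.11 ± 0.28 (2.15-fold, SE, limma adjusted p = 0.0208), a call that ended in turn without NOD1 replicate 1 (adjusted p = 0.0598), NOD1 replicate 3 (0.0586), control replicate 1 (0.0611) or control replicate 2 (0.0627), with the authors' deposited p-values after adjustment (0.0541) and with GAPDH alone as reference (0.0590). On the same plate STAT5.1 minus STAT5.2 was -0.44, 0.097 and -0.40 in NOD1 plates, against -0.15, 0.020 and -0.40 in control plates. These groups overlapped, and the difference of the paralogs changed by -0.074 ± 0.21 (SE; exact permutation p = 0.8, two-sided; also 0.8 adjusted over 3 pairs), so a different response of the STAT5 paralogs was not detectable with 3 plates per group.

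If the synonym match of STAT7 holds, the pair of stat6 assays gave a repeat measurement of 1 gene. The STAT6 well had relative levels of -8.14, -7.39 and -7.32 in NOD1 plates, against -6.56, -6.66 and -6.72 in control plates. The STAT7 well had -8.11, -7.56 and -7.49 in NOD1 plates, against -6.81, -6.88 and -6.93 in control plates. Both wells were lower in every NOD1 plate, and both were lowest in NOD1 replicate 1. The falls were 0.97 ± 0.24 for STAT6 (1.96-fold, limma adjusted p = 0.0192) and 0.85 ± 0.19 for STAT7 (1.80-fold, adjusted p = 0.0142; SE). Leaving out control replicate 1, 2 or 3 ended the STAT6 call (adjusted p = 0.0596, 0.0512 and 0.0507), while the STAT7 call was kept without any 1 plate, and both were lost with GAPDH alone (0.0587 and 0.0570). STAT6 minus STAT7 was -0.034, 0.17 and 0.17 in NOD1 plates, against 0.25, 0.22 and 0.21 in control plates, a change of -0.12 ± 0.069 (SE; exact permutation p = 0.1, two-sided; 0.15 adjusted over 3 pairs), which is small beside the fall that both assays gave.

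STAT4, which relays IL-12 in mammals, had relative levels of -9.31, -9.26 and -9.49 in NOD1 plates, against -9.70, -10.06 and -9.48 in control plates. NOD1 replicate 3 and control replicate 3 overlapped, and the difference of 0.39 ± 0.18 did not pass (SE, limma adjusted p = 0.125). It was -0.45 with quantile, -0.38 with cyclic loess scaling, -0.13 with the plate median and -0.26 on raw Ct, none of which passed. The neighbouring genes stat4 and stat1b thus had different values, with STAT4 minus STAT1b at 0.93, 0.19 and -0.28 in NOD1 plates, against 1.46, 1.52 and 3.04 in control plates. For the neighbours stat3 and stat5a, the difference between the wells overlapped between groups. STAT3 minus STAT5.1 was -0.71 ± 0.47 in NOD1 and -0.84 ± 0.18 in control plates (SD, n = 3 each).

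**Figure D3:**
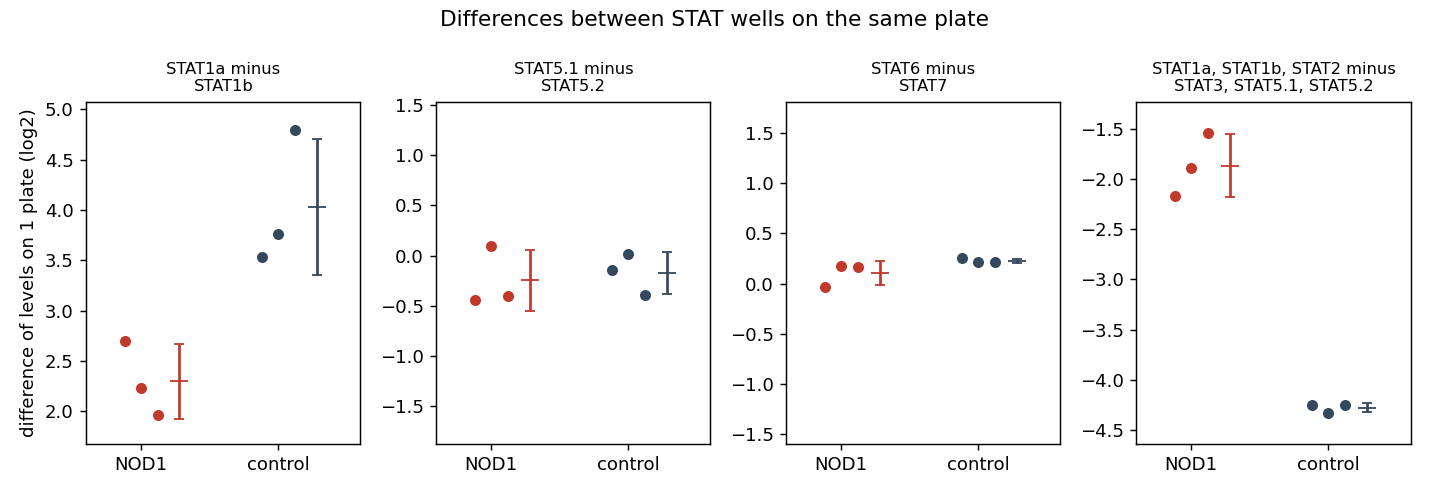
Difference between STAT wells on the same plate (log2), for 3 NOD1 plates (red, left) and 3 control plates (dark, right), with group mean and SD; reference genes cancel in each. The groups are apart for STAT1a minus STAT1b (2.30 in NOD1, 4.03 in control) and for the mean of STAT1a, STAT1b and STAT2 minus the mean of STAT3, STAT5.1 and STAT5.2 (-1.87 in NOD1, -4.27 in control), overlap for STAT5.1 minus STAT5.2, and are 0.037 apart for STAT6 minus STAT7.

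The balance between the interferon STATs and the growth and IL-6 STATs also cancels the reference genes. The mean level of STAT1a, STAT1b and STAT2 minus that of STAT3, STAT5.1 and STAT5.2 was -2.17, -1.90 and -1.54 in NOD1 plates, against -4.25, -4.33 and -4.25 in control plates. The NOD1 plates were all higher, the control plates had an SD of 0.045, and the shift was 2.40 ± 0.18 (SE, n = 3 each), which is described without a test because it is a score over chosen wells. That control SD hides opposite moves that cancel in the mean. Over control replicates 1 to 3 STAT1b went from -11.16 to -11.58 and -12.52, and STAT2 from -10.20 to -9.76 and -9.32. For single pairs the control SD ran from 0.077 (STAT1a minus STAT5.2) to 0.65 (STAT2 minus STAT5.1). The shift was 1.66 with quantile and 1.76 with cyclic loess scaling. Each of the 9 single pairs of an interferon STAT and a growth or IL-6 STAT was shifted the same way with no overlap between groups, by 1.36 (STAT1a minus STAT3) to 3.23 (STAT1b minus STAT5.1). That count, and the side to which the mean balance moved, were fixed by the single wells. STAT1a, STAT1b and STAT2 each lay above every control plate, and STAT3, STAT5.1 and STAT5.2 each lay below. The pairs reuse these wells and give no further support for a shift. Of all 50721 pairs of tested genes, 63.9% did not overlap. The pair with the smallest SE, STAT1a minus STAT5.2, was shifted by 1.42 ± 0.078 (SE). Most of that shift is the fall of STAT5.2 (1.03), while STAT1a, at 0.39, did not pass by itself.

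The single-reference, plate median and raw Ct scalings each moved all wells by 1 common amount, while quantile and cyclic loess scaling moved each well by its own. With the 3 reference genes, Tuba1 alone, ACTB alone, B2M added, the plate median, quantile, cyclic loess and raw Ct, all 5 lower wells passed as lower, and with GAPDH alone 2 did (STAT3 and STAT5.2). The share of all tested genes that passed as lower was 7.86% with GAPDH alone, 11.6% with B2M added, 14.8% with Tuba1, 21.7% with ACTB, 22.6% with cyclic loess, 24.5% with quantile, 35.7% with the plate median and 42.0% on raw Ct. STAT1b and STAT2 were positive under all 9 scalings and each passed under 7 of them. The share of all tested genes that passed as higher was 39.9% with GAPDH alone, 38.9% with B2M added, 35.8% with Tuba1, 32.1% with ACTB, 24.8% with the plate median, 22.3% on raw Ct, 20.7% with cyclic loess and 18.8% with quantile scaling. STAT1a passed under 3 (GAPDH alone, B2M added and cyclic loess) and STAT4 under 0 (limma). At an unadjusted limma p under 0.05, 4 STAT wells were higher with GAPDH alone and with B2M added. The share of all tested genes at that unadjusted threshold was not counted, so those 4 wells cannot be set against the panel. The median difference of all tested genes ran from -0.34 on raw Ct to 0.53 with GAPDH alone.

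**Figure D4:**
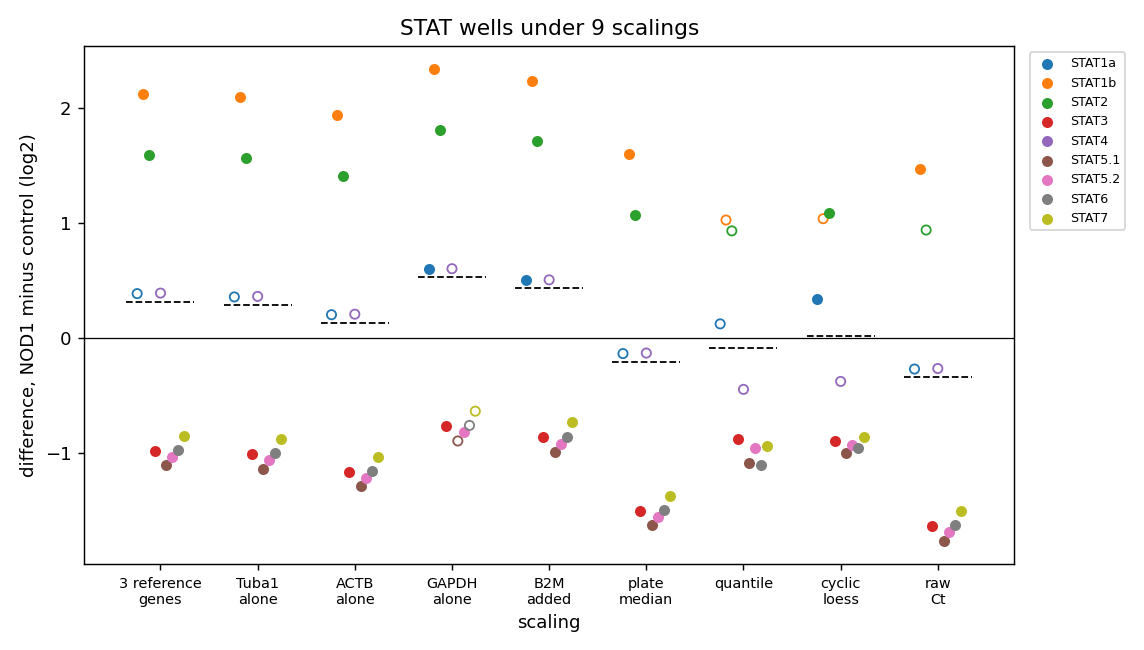
Difference, NOD1 minus control (log2), of the 9 STAT wells under 9 scalings; filled points passed at a limma adjusted p under 0.05, open points did not, and the dashed line is the median of all tested genes under that scaling. STAT1b and STAT2 stay above 0, STAT3, STAT5.1, STAT5.2, STAT6 and STAT7 stay below it, and STAT1a and STAT4 cross it.

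Replicate differences within a group were partly common to the wells. NOD1 replicate 1 was the lowest NOD1 plate for 8 of the 9 STAT wells, where it was the lowest for 60.8% of the 319 tested genes, and it was also the NOD1 plate with the lowest level of the injected gene, at -3.20. Control replicate 3 was the lowest control plate for 6 of the 9 wells, where it was the lowest for 36.7% of the tested genes. The part of these plate differences in the results was not tested beyond leaving each plate out.

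The genes whose levels over the 6 plates lay closest to those of STAT1b, by Euclidean distance between mean-centred levels, were CCL-C25t (1.02), LGP2 (1.04) and IL1B (1.11). All 3 were higher in NOD1, although CCL-C25t and LGP2 did not pass with quantile scaling (adjusted p = 0.161 and 0.0835). CCL-C25t is a chemokine by its plate symbol, LGP2 a cytoplasmic sensor of viral RNA and IL1B an inflammatory cytokine. Those closest to STAT5.1 were TP73 (0.50), a transcription factor of the p53 family, IL6ST (0.64), the common signalling chain of the IL-6 receptors, and F2R (0.67), a thrombin receptor. These distances describe 6 plates in 2 groups, and a gene with a similar group difference scores as close. Among the STAT wells themselves the closest were the pair of stat6 assays (0.23), followed by STAT3 and STAT5.2 (0.27), while STAT1a lay closer to STAT4 (0.48) than to STAT1b (2.39).

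The rest of the JAK-STAT pathway was followed through a list of 45 kept genes, of which 25 were higher, 6 lower and 14 did not pass, with a median difference of 0.72 (limma, adjusted over all tested genes, where 37.0% were higher and 15.4% lower). The split moved with the scaling, and so did the shares of all tested genes. On raw Ct 14 listed genes were higher and 13 lower, where 22.3% and 42.0% of all tested genes were. The plate median gave 18 higher and 10 lower, beside 24.8% and 35.7% of all tested genes. Quantile scaling gave 13 higher and 10 lower (all tested genes: 18.8% higher, 24.5% lower). Cyclic loess scaling gave 12 higher and 10 lower (all tested genes: 20.7% higher, 22.6% lower). Of 13 ligands, 11 were higher and 0 lower (limma; 0 lower as well under the 8 other scalings). The higher ligands numbered 7 with quantile and 6 with cyclic loess scaling, where 18.8% and 20.7% of all tested genes were higher.

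Among the ligands of the interferon STATs, IFNphi4 was higher by 2.50 ± 0.33 (adjusted p = 0.00235) and ifng1-2 by 2.09 ± 0.20 (adjusted p = 9.70e-04), and both passed under every scaling and without any 1 plate. The size for ifng1-2 was 0.82 with quantile and 0.93 with cyclic loess scaling. IFNphi3 and ifng1-1 were higher by 3.46 ± 0.63 and 3.22 ± 0.62 (2.39 and 2.38 with quantile scaling; 2.21 each with cyclic loess, where the IFNphi3 call ended at an adjusted p of 0.0521). IFNphi2 was higher by 2.26 ± 0.43, but by 0.81 and 0.76 with quantile and cyclic loess scaling, where it was not called (adjusted p = 0.256 and 0.187). IFNphi1 differed by 0.26 ± 0.80 (adjusted p = 0.798), and was negative with the plate median (-0.26), quantile (-1.18), cyclic loess (-1.26) and raw Ct (-0.39). IRF9, the partner of STAT2, differed by 0.18 ± 0.19 (adjusted p = 0.441). It was negative with ACTB alone, the plate median and quantile scaling, and was called lower on raw Ct (-0.48, adjusted p = 0.0324).

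Of the interleukins, IL15 and IL22 were higher by 1.12 ± 0.14 and 2.30 ± 0.24 and passed under every scaling, at 0.36 and 1.11 with quantile scaling. IL21 was higher by 2.05 ± 0.41, but not called with quantile (0.83, adjusted p = 0.141) or cyclic loess scaling (0.80, adjusted p = 0.102). Its receptor chain IL21R was not called (-0.42 ± 0.26, adjusted p = 0.225). IL21R was called lower with the plate median (-0.94, adjusted p = 0.00673), quantile (-1.58, 0.00554), cyclic loess (-1.57, 0.00258) and raw Ct (-1.07, 0.00622). Among genes tied to STAT4 in mammals, the ligand chain IL12a and the receptor chain IL12RB2 were higher by 2.30 ± 0.43 and 3.19 ± 0.25 and passed under every scaling, while STAT4 itself did not pass. Their sizes were 1.45 and 2.17 with quantile scaling, and 1.52 and 2.05 with cyclic loess. The other IL-12 chain called, IL12BB, was higher by 1.80 ± 0.42, and its call ended at 0.29 with both quantile and cyclic loess scaling (adjusted p = 0.703 and 0.599). Of the genes tied to STAT6 in mammals, IL4 was higher by 2.16 ± 0.56, a call that was lost under 4 of the 8 other scalings (the plate median, quantile, cyclic loess and raw Ct) and without NOD1 replicate 1 (adjusted p = 0.0576), control replicate 2 (0.0586) or control replicate 3 (0.0628). Its size was 0.35 with quantile and 0.65 with cyclic loess scaling. The receptor chain IL4R was not called (0.72 ± 0.35, adjusted p = 0.138) and was negative with quantile (-0.45) and cyclic loess scaling (-0.33). The receptor chain IL13RA1 was higher by 0.68 ± 0.13 (adjusted p = 0.00723), a call that was lost with the plate median (0.16), quantile (0.093), cyclic loess (0.27) and raw Ct (0.028).

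Of 20 receptor chains, 11 were higher and 4 lower, where 37.0% and 15.4% of all tested genes were. On raw Ct 3 chains were higher and 7 lower, where 22.3% and 42.0% of all tested genes were. The 4 lower chains were IL6ST, the prolactin receptor PRLR, the erythropoietin receptor EPOR and CSF2RB, a common subunit of myeloid growth factor receptors, at -1.35 ± 0.28, -1.15 ± 0.17, -1.01 ± 0.16 and -1.84 ± 0.57 (SE). IL6ST, PRLR and EPOR passed as lower under all 9 scalings and without any 1 plate. CSF2RB had no Ct in NOD1 replicate 2 and was set to the ceiling of 35 there, and its Ct in NOD1 replicate 1 was 34.8. It was kept through the control plates only, so its sizes depend on that ceiling. CSF2RB missed the threshold without NOD1 replicate 1 or 2 or any of the control plates (adjusted p = 0.0715 to 0.119), was -2.50 without NOD1 replicate 3, and was -2.92 with quantile and -3.36 with cyclic loess scaling. The growth hormone receptor GHR stood at -0.42 ± 0.16 (adjusted p = 0.0777), and passed as lower with ACTB alone (-0.60, adjusted p = 0.0234), the plate median (-0.94, 0.00579) and raw Ct (-1.07, 0.00286).

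Some other receptor chains tied to STAT3 or STAT5 were higher. IL6R and IL-6RA, IL-6 receptor chains by their plate symbols, were higher by 0.62 ± 0.16 and 0.88 ± 0.21 (adjusted p = 0.0225 and 0.0158). The IL6R call was lost with ACTB alone, the plate median, quantile, cyclic loess and raw Ct, where it was -0.032, and without control replicate 1 or 3 or NOD1 replicate 2 or 3. The IL-6RA call was lost with the plate median and raw Ct, and without control replicate 1 or 2 or NOD1 replicate 2, and its sign turned with quantile (-0.14) and cyclic loess scaling (-0.086). IL2RGA and IL2RB, chains of the IL-2 receptor, which signals through STAT5, were higher by 2.27 ± 0.20 and 1.13 ± 0.18 (adjusted p = 9.26e-04 and 0.00409). IL2RGA passed under every scaling and without any 1 plate, whereas IL2RB was -0.23 with quantile and -0.35 with cyclic loess scaling and was not called there or on raw Ct (0.47, adjusted p = 0.0549). IL-15RA was higher by 0.66 ± 0.22 (adjusted p = 0.0466), a call that was lost with ACTB alone, the plate median and raw Ct and without control replicate 1 or 3 or NOD1 replicate 2 or 3, and that turned to lower with quantile (-0.60, adjusted p = 0.0209) and cyclic loess scaling (-0.53, adjusted p = 0.0319).

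Of the cytokine receptor family chains, CRFB1, CRFB5 and CRFB17 were higher by 1.67 ± 0.33, 0.66 ± 0.13 and 0.87 ± 0.15. The CRFB1 call was lost with quantile (0.97), cyclic loess (1.05) and raw Ct (1.02), and the other 2 calls with the plate median (0.14 and 0.35) and raw Ct (0.0064 and 0.21). CRFB6 was not called (0.18 ± 0.13, adjusted p = 0.300), but was called lower on raw Ct (-0.48, adjusted p = 0.0201). IL7R, the remaining higher chain, is described with the blood markers.

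The kinases gave few calls. JAK2 fell by 0.37 ± 0.11 (adjusted p = 0.0374), a call that was lost whichever of the 6 plates was left out (adjusted p = 0.0564 to 0.139), and with GAPDH alone, B2M added and cyclic loess scaling. JAK3 differed by 0.25 ± 0.23 (adjusted p = 0.383), was negative with the plate median (-0.27), quantile (-0.96) and raw Ct (-0.40), and was called lower with cyclic loess scaling (-1.18, adjusted p = 0.0179). JAK1 had no Ct in control replicate 1 and was set to the ceiling of 35 there, and its difference of 4.24 ± 3.45 missed the threshold. Without that plate the JAK1 difference was 0.11 (adjusted p = 0.613). Of the inhibitors, SOCS5 fell by 0.75 ± 0.15 and passed under every scaling, SOCS4 rose by 1.10 ± 0.21 (adjusted p = 0.0937 on raw Ct), and PIAS2 was at the ceiling on all 6 plates and was not tested. Of 7 partners and induced genes, 2 were higher and 0 lower (limma; 1, BCL6, at an unadjusted p under 0.05, and called lower with ACTB alone, the plate median, quantile, cyclic loess and raw Ct), where 37.0% and 15.4% of all tested genes were. On raw Ct 1 was higher and 4 lower (IRF1, IRF9, BCL6 and MYC), where 22.3% and 42.0% of all tested genes were. MYC differed by -0.13 ± 0.15 (adjusted p = 0.483), and was called lower with the plate median (-0.65, adjusted p = 0.0150) and raw Ct (-0.78, 0.0110). IRF1, from the same 7 genes, differed by 0.088 ± 0.20 (adjusted p = 0.721). It was called lower with quantile (-0.86, adjusted p = 0.0118), cyclic loess (-0.83, 0.00743) and raw Ct (-0.57, 0.0404). The higher genes were the interferon-induced GTPases GBP1 (3.29 ± 0.90) and MX (1.71 ± 0.32). MX was a late well, with a Ct of 32.8 to 33.7 in NOD1 and 33.5 to 34.7 in control plates, close to the ceiling of 35. The GBP1 call was lost with quantile and cyclic loess scaling and without NOD1 replicate 1 (adjusted p = 0.0859), NOD1 replicate 2 (0.0826) or control replicate 2 (0.0583), and its rise was 4.10 without NOD1 replicate 3 and 2.60 without control replicate 2. The MX call was lost with quantile (-0.083, adjusted p = 0.856), cyclic loess (0.16, adjusted p = 0.731) and raw Ct (1.05, adjusted p = 0.0569).

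**Figure D5:**
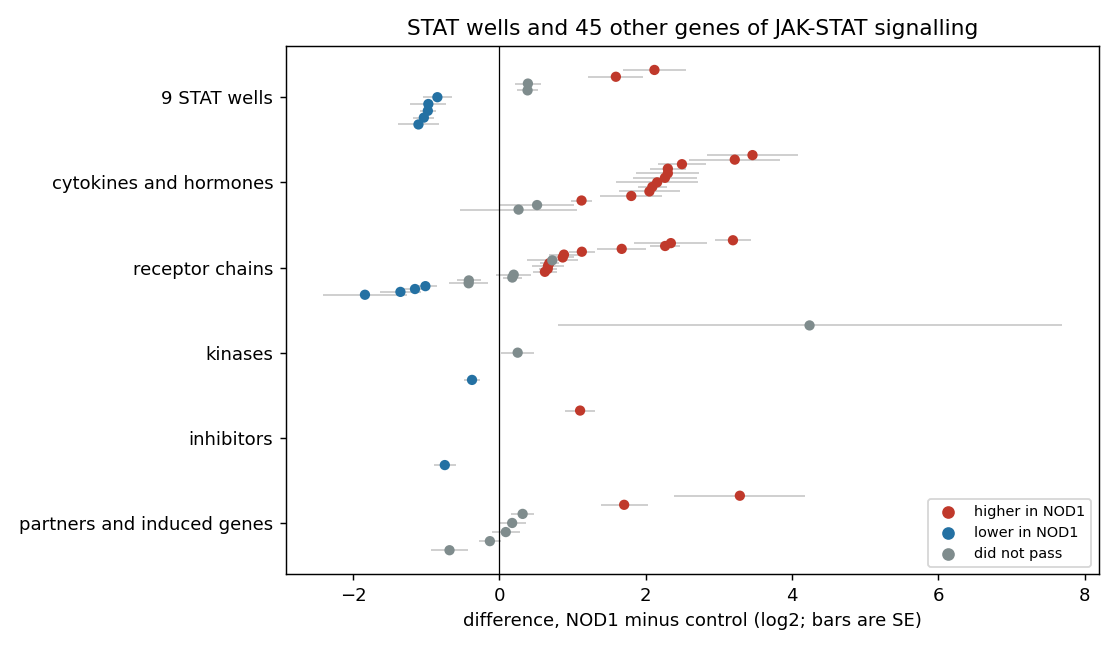
Difference, NOD1 minus control (log2, bars are limma SE), of the 9 STAT wells and of 45 other genes of JAK-STAT signalling by role; red passed as higher, blue as lower, grey did not pass. Most ligands lie to the right (11 of 13 higher), receptor chains lie on both sides (11 higher, 4 lower), and the STAT wells split into 2 higher, 5 lower and 2 that did not pass.

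Blood and leukocyte markers were followed because blood cells are a main site of cytokine signalling. Of 32 listed markers the plate held 5, all from the blood and leukocyte part of the list. It held none of the listed muscle, skin, neural or endothelial genes, so the embryo label was not checked against those. Whether the 5 markers are confined to blood cells in these embryos was not tested. The myeloid factor SPI1 was higher by 0.81 ± 0.19, but not called on raw Ct (0.16, adjusted p = 0.484), with the plate median (0.29, 0.208), with quantile scaling (0.62, 0.0625) or without control replicate 3 (0.0507). The lymphoid receptor IL7R was higher by 2.35 ± 0.50, but not called with quantile (1.15, adjusted p = 0.155) or cyclic loess scaling (1.20, 0.0898). The macrophage receptor CSF1R and EPOR were lower, at -1.17 ± 0.16 and -1.01 ± 0.16. GATA3 differed by 0.32 ± 0.15 without passing (adjusted p = 0.138), was called higher with quantile (0.39, 0.0136) and cyclic loess scaling (0.42, 0.0157) and without NOD1 replicate 1 (0.45, 0.0247), and was negative with the plate median (-0.20) and raw Ct (-0.34). The summed relative level of the 5 markers on a linear scale was 0.0251 to 0.0333 in NOD1 plates, against 0.0246 to 0.0266 in control plates, and none was undetermined. That sum is weighted by assays of unknown efficiency, and GATA3, the marker with the lowest Ct, makes up most of it. The part of these markers in the STAT results was not tested.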

How the data were processed

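Per the file headers, plates were read with SDS 2.3 at a manual threshold of 0.2, and the plate files hold raw Ct with no normalization. A table deposited by the authors gives each group's delta Ct (log2-like), its ratio or fold of NOD1 over control, a p-value and a signed fold score. Wells with no Ct, or one over 35, were given 35. Recomputing the delta Ct and p-values from the plates gave the deposited ones for 326 of 326 genes, the p-values to within a relative difference of 1e-04 by an equal-variance test.

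Genes with a Ct under 35 on all 3 plates of at least 1 group were kept (319), and NOD1 was compared with control by limma 3.58.1 in R 4.3.3 on all 6 plates, with Benjamini-Hochberg adjustment over all 319 and a threshold of 0.05. Differences between wells on 1 plate were compared by exact permutation. Same-numbered replicates did not deviate together (r = 0.11, 0.031 and -0.022 over genes), so no pairing was used. The script was tested on simulated data. Named genes are all STAT wells, the 3 nearest genes of the STAT with the largest rise and of that with the largest fall, and of the pathway list the genes that passed and those given as background to a STAT. IRF1, IL21R, BCL6, JAK3, MYC and CRFB6 are named as well. They did not pass with the 3 reference genes, but passed as lower under other scalings. The members and lists were chosen with earlier results of these data known. The comparison of the stat6 assays was added after annotation.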

Additional observations from a re-analysis of the deposited data

How the results depend on the processing

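The counts of STAT wells, 2 higher and 5 lower, were the same with Tuba1 or ACTB alone, the plate median, a ceiling of 40 cycles, values over 35 missing, no filter and a Ct filter under 32. The ceiling and filter settings could not change a STAT level, since every STAT Ct lay between 22.6 and 30.0 cycles. They acted on the STAT calls only through the rest of the panel, so the same counts there show little. Lower wells numbered 2 with GAPDH alone, where 7.86% of all tested genes were lower. Higher wells numbered 0 with quantile scaling (limma, and also 0 when unadjusted p-values under 0.05 were counted) and 1 on raw Ct, where 18.8% and 22.3% of all tested genes were higher. They numbered 4 with run day as a random block, whose estimated correlation was -0.33 (141 genes of the panel higher and 71 lower there, against 118 and 49). No run day was common to the groups, so this block could not adjust the group difference for run day and decides nothing about it. The interferon against growth and IL-6 balance of 2.40 was 1.66 with quantile and 1.76 with cyclic loess scaling. STAT1a turned to -0.13 with the plate median and -0.27 on raw Ct, and STAT4 to -0.13 with the plate median, -0.45 with quantile, -0.38 with cyclic loess and -0.26 on raw Ct. The causes were not tested.

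Leaving out 1 plate at a time gave 1 to 3 higher wells (1 without NOD1 replicate 2) and 3 to 5 lower wells (3 without control replicate 1 or control replicate 2). Calls over the panel fell as well, from 118 higher and 49 lower of 319 tested genes with all plates. Without NOD1 replicate 2, 96 of 321 were higher. Without control replicate 1, 31 of 320 were lower, and without control replicate 2, 33 of 321. The balance ran from 2.24 to 2.56, STAT1a minus STAT1b from -1.98 to -1.35, STAT6 minus STAT7 from -0.16 to -0.055, and STAT5.1 minus STAT5.2 from -0.25 to 0.024. With the replicate number as a block, 2 wells were higher and 5 lower and no STAT call changed. Over the panel 111 genes were higher and 40 lower with this block, against 118 and 49. The sign-flip exact test gave p = 0.25 for the change in STAT1a minus STAT1b (-1.73). With 3 replicate pairs this is the lowest value that exact test can give, so it could not pass and decides nothing about that change. For STAT5.1 minus STAT5.2 (-0.074) the sign-flip exact test gave p = 0.75. With 3 plates per group, smaller differences such as that of STAT4 were not detectable.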
